A study of Mus musculus with 2 samples.

Results

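The transcripts of 10 neutrophil granule proteins were followed in mouse spleen RNA: 4 of azurophil granules (Mpo, Elane, Prtn3 and Ctsg), 5 of specific granules (Ltf, Camp, Lcn2, Ngp and Mmp8) and 1 of gelatinase granules (Mmp9). The genes were chosen by name from textbook granule classes, with earlier results of these data known. Every probe set whose annotated gene symbol was one of the 10 was taken. All 10 genes were on the array, through 13 probe sets of 12488 in all, and each of the 13 named a single gene. They are 10 of 8251 genes with a probe set of their own. The RNA was total RNA of mouse spleen that was bought from Clontech and hybridised to 2 Affymetrix oligonucleotide arrays, called array 1 and array 2 by the numbers in their titles. The labels name no strain, age, sex, treatment or pooling of animals, and no control. The arrays form 1 group of 2, so levels and their spread are described and no p-value was computed. Nothing says that the arrays came from separate animals or separate labellings, and the spread between them may be technical.

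Neutrophils carry their antimicrobial proteins ready made in granules that are filled in sequence as the cell matures in the marrow. Azurophil granules are formed first, at the promyelocyte stage, and hold myeloperoxidase and serine proteases; specific granules follow and hold iron-binding and antimicrobial proteins; gelatinase granules come last and hold matrix-cutting enzymes. The transcripts are made mostly in the precursor that fills the granule, and much less in the mature circulating cell. The mouse spleen keeps some blood cell formation in its red pulp and also holds mature neutrophils.

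Signal is in arbitrary units on a linear scale, as deposited. The 15 probe sets for bacterial genes, which have no target in mouse, gave the background, with a highest value of 95 on array 1 and 76.2 on array 2. A gene counted as bright when, on each array, its brightest probe set passed the 60th percentile of that array. The cutoff came to 346.32 for array 1 and 342.22 for array 2. Of the 10 granule genes 7 were bright, against 45.2% of all genes, and 8 passed the highest bacterial control of each array, against 73.9% of all genes. By class, 3 of 4 azurophil genes, 4 of 5 specific granule genes and 0 of 1 gelatinase granule gene were bright. The same 7 genes passed the cutoff on each array alone. The signal of a probe set varies with its probes and not with its transcript alone, so no gene's signal is set against that of another. In whole spleen RNA, fewer cells of a type and less RNA per cell cannot be told apart.

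**Figure D1:**
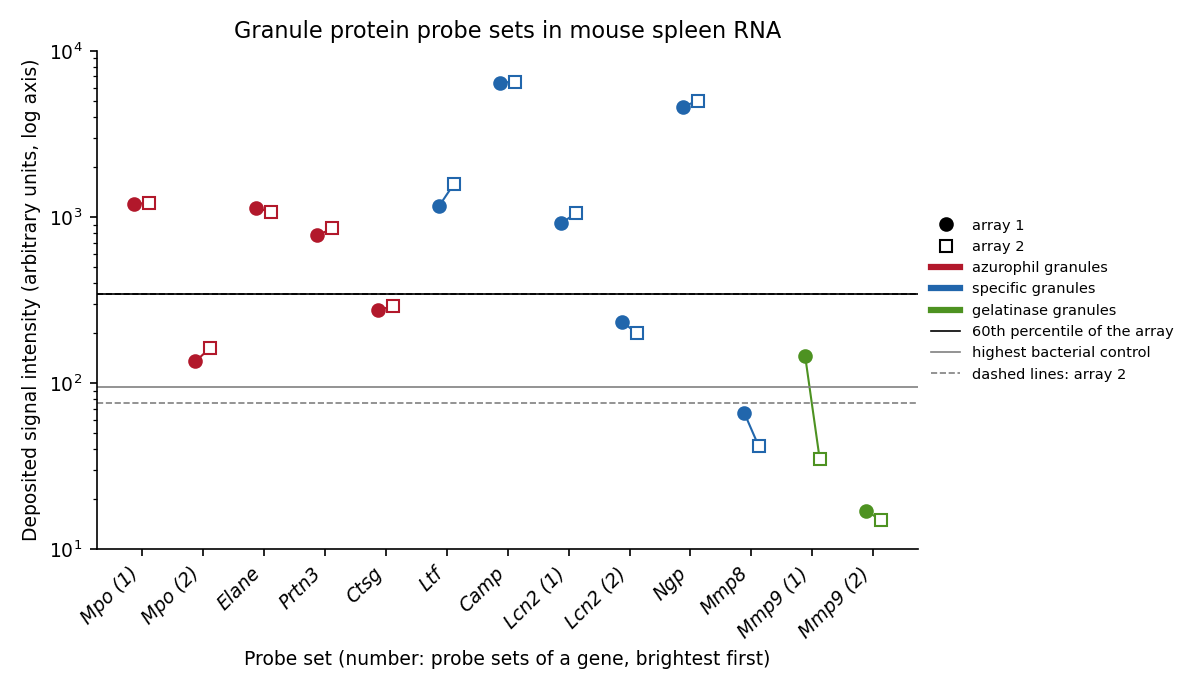
Deposited signal intensity (arbitrary units, log axis) of the 13 probe sets of the 10 granule genes, with array 1 as filled circles and array 2 as open squares, coloured by granule class. Black lines mark the 60th percentile and grey lines the highest bacterial control of each array, solid for array 1 and dashed for array 2. Mpo, Elane, Prtn3, Ltf, Camp, Lcn2 and Ngp each have a probe set above the black lines on both arrays, Ctsg lies between the lines, and Mmp8 lies below the grey lines.

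Of the azurophil genes, Mpo, Elane and Prtn3 were bright and Ctsg was not. Mpo encodes myeloperoxidase, which makes hypochlorous acid from hydrogen peroxide and chloride. Its brighter probe set, 100414_s_at, gave 1196 on array 1 and 1216.7 on array 2, a mean of 1206 ± 14.6 (SD, n = 2 arrays here and below). This was 12.6 times the highest bacterial control on array 1 and 15.97 times on array 2. The suffix _s_at marks a probe set that can read several related transcripts. The other Mpo probe set, 100415_at, gave 135.1 and 163, or 149 ± 19.7, above the bacterial controls on both arrays and below the cutoff on both. Both probe sets are named for Mpo, and they disagree on whether the gene is bright.

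Elane and Prtn3 encode neutrophil elastase and proteinase 3, serine proteases that are stored active and cut microbial and matrix proteins. Elane gave 1134.8 on array 1 and 1066.8 on array 2, a mean of 1101 ± 48.1. Prtn3 gave 774 on array 1 and 852.6 on array 2, a mean of 813 ± 55.6. Both genes were bright on both arrays, Elane slightly higher on array 1 and Prtn3 slightly higher on array 2. In RefSeq's order of genes on assembly GRCm38.p6 they are direct neighbours among protein-coding genes. Cfd, which encodes the serine protease complement factor D and follows Elane there, was not measured by a probe set of its own.

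Ctsg encodes cathepsin G, a chymotrypsin-like serine protease of the same granules. It gave 275.7 on array 1 and 290.9 on array 2, a mean of 283 ± 10.7. Both values were above the bacterial controls, 2.90 times on array 1 and 3.82 times on array 2, and both were below the cutoff. They lay at the 54.3rd and 56.1st percentile of their arrays, so Ctsg was bright under the 50th percentile as cutoff. Its neighbours in the gene table are Mcpt8, a basophil protease, and the granzyme gene Gzme. Mcpt8, read by a probe set with relaxed probe selection, gave 100.3 and 111.6 and was not bright.

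The 250 bases before the annotated start of each gene were searched for short letter patterns on both strands, in RefSeq promoters of build GRCm38.p6. The table held 9 of the 10 genes, and Mmp9 was not among them. For each granule gene only the first start listed was searched. The shares over all promoters are per promoter and not per gene, since the table lists 32851 promoters of 27025 genes. The pattern AGGAAGT, a form of the ETS motif that PU.1, the myeloid factor encoded by Spi1, can bind, was found in 4 of 4 azurophil genes and in 1 of 5 specific granule genes, Mmp8. It was found in 7.69% of all 32851 promoters in the table. The following stretches of 100 bases show where it lies in the azurophil genes, in capitals, 5′ to 3′ on the strand of the gene.
Mpo, chr11:87793534-87793633, plus strand: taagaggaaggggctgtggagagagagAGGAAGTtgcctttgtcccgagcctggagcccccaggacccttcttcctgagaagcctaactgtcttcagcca
Elane, chr10:79886181-79886280, plus strand: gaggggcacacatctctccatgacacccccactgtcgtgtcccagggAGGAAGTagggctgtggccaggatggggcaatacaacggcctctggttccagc
Prtn3, chr10:79879526-79879625, plus strand: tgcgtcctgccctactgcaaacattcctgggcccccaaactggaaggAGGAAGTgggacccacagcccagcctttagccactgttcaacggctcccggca
Ctsg, chr14:56102725-56102824, minus strand: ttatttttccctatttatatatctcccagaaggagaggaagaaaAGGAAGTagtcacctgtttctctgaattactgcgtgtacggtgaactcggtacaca
The matches began 223 bases before the start in Mpo, 84 in Elane, 94 in Prtn3 and 206 in Ctsg, all on the strand of the gene. The neighbours Elane and Prtn3 therefore had it at nearly the same distance. A longer form, GAGGAAGT, was present in Mpo, Elane, Prtn3 and Mmp8 and in 2.44% of all promoters. A match of letters is a description and not a binding site. The patterns were chosen after these promoters had been looked at, out of 10 searched.

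Of the specific granule genes 4 were bright, and Mmp8 was not. Ltf encodes lactoferrin, which binds iron and withholds it from bacteria. It gave 1169.1 on array 1 and 1582.2 on array 2, a mean of 1376 ± 292. Both values were bright, and the value on array 2 was 1.35 times that on array 1. Camp encodes the cathelicidin of the mouse, a precursor whose cleaved end kills bacteria. It gave 6425.3 on array 1 and 6521.9 on array 2, a mean of 6474 ± 68.3, so that the SD was 1.06% of the mean. Camp lay at the 98.4th percentile of both arrays.

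Ngp encodes neutrophilic granule protein, a relative of the cathelicidins that is abundant in maturing mouse neutrophils. It gave 4611.3 on array 1 and 5002.8 on array 2, a mean of 4807 ± 277. Its values lay at the 97.8th and 97.9th percentile of their arrays. Lcn2 encodes lipocalin 2, which captures the siderophores by which bacteria take up iron. Its probe set 160564_at gave 917.8 on array 1 and 1050.6 on array 2, a mean of 984 ± 93.9. The other Lcn2 probe set, 161684_r_at, whose suffix marks relaxed probe selection, gave 234.2 and 199.5, or 217 ± 24.5. It was above the bacterial controls and not bright, and it was lower on array 2 where the brighter probe set was higher. Lactoferrin and lipocalin 2 are also made by epithelia, so these probe sets are not specific to neutrophils.

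Mmp8 encodes neutrophil collagenase, which is stored inactive and cuts fibrillar collagen. It gave 66.5 on array 1 and 41.7 on array 2, a mean of 54.1 ± 17.5. Neither value exceeded the highest bacterial control of its array, so the transcript was not detected above background by this probe set. Its neighbour Mmp10, another matrix metalloproteinase, gave 7.2 and 3.7 and was not above background either.

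The pattern TTGCNNAA, a form of the C/EBP motif, was found before the start of 4 of 5 specific granule genes, Ltf, Lcn2, Ngp and Mmp8, and of 0 of 4 azurophil genes. It was found in 9.56% of all promoters. C/EBP-epsilon, a member of the family that binds such motifs, is known to be needed for specific granules. The stretches are shown because this pattern and AGGAAGT lay in different granule classes apart from Mmp8, which had both. Both patterns were chosen after these promoters had been looked at, so the split by class is a description and was not tested. Matches of TTGCNNAA on either strand are in capitals, again 5′ to 3′ on the strand of the gene.
Ltf, chr9:111019171-111019270, plus strand: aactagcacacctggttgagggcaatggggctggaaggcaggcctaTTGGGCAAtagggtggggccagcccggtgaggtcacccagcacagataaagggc
Lcn2, chr2:32387890-32387989, minus strand: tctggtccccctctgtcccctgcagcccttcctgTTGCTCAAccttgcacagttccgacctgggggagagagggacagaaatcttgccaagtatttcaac
Ngp, chr9:110419624-110419723, plus strand: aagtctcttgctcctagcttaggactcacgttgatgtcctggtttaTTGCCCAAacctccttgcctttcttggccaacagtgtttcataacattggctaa
Mmp8, chr9:7558329-7558428, plus strand: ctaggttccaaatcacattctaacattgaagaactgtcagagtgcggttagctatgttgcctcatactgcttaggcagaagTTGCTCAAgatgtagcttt
Ltf had the match on the opposite strand, where it reads TTGGGCAA along the gene, beginning 75 bases before the start. Lcn2 had TTGCTCAA at 216 bases and Mmp8 had the same letters at 19 bases. Ngp had 2 matches, TTGCCCAA at 138 bases and, outside the stretch shown, TTGGGCAA at 11 bases before the start. Camp had neither pattern in this window. The looser form TTNNNNAA, of which TTGCNNAA is a case, was found in the same 4 specific granule genes, in 0 of 4 azurophil genes and in 57.7% of all promoters. Mmp8, which had the 2 patterns, was not detected above background by its probe set, and Camp, which had neither, was bright. A relation between patterns and signal was not tested.

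The remaining 6 of the 10 patterns were the ETS forms GGAAGT and GAGGAA, the TATA forms TATAAA and TATAA, the RUNX form TGTGGT and the MYB form AACNG. The first, GGAAGT, which lies within AGGAAGT, was found in the same 5 genes and in 19.7% of all promoters. GAGGAA was found in 4 of 4 azurophil genes and 3 of 5 specific granule genes, and in 23.3% of all promoters. TATAA was found in Elane, Prtn3 and Ctsg, in 0 of 5 specific granule genes and in 22.8% of all promoters. It began 31 bases before the start in Elane and 32 in Prtn3, on the strand of the gene. In Ctsg it lay 236 bases before the start on the opposite strand. TATAAA and TGTGGT were each found in Ctsg alone among the 9 genes, on the opposite strand, and in 12.4% and 14% of all promoters. AACNG was found in all 9 genes and in 74.2% of all promoters.

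Mmp9, the gene of the gelatinase granule class, was not bright. Its brighter probe set, 99957_at, gave 146 on array 1 and 34.8 on array 2, a mean of 90.4 ± 78.6. The value on array 1 lay above the highest bacterial control of that array, and the value on array 2 lay below that of its own. The other probe set, 162369_f_at, whose suffix marks a family of similar sequences, gave 17.1 and 15 and was not above background on either array. Mmp9 was thus measured above background on 1 of 2 arrays and by 1 of 2 probe sets.

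The arrays were compared gene by gene as the log2 difference, array 2 minus array 1, after values below the 20th percentile of their array (41.8 on both) had been set to it and the median over bright probe sets had been set to 0. The 4708 bright probe sets had a pooled SD of 0.152 on that scale, and 95% of them differed by less than 1.36-fold, or 0.44 on the log2 scale. All 7 bright granule genes lay within that range. The differences were 0.03 for Mpo, -0.09 for Elane and 0.14 for Prtn3 among the azurophil genes. They were 0.44 for Ltf, 0.02 for Camp, 0.20 for Lcn2 and 0.12 for Ngp among the specific granule genes. Ltf was nearly at the limit, and 5.33% of the 3731 bright genes were at least as far apart.

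Of the 7 bright granule genes 6 were higher on array 2, against 49.9% of all bright genes, and Elane was higher on array 1; with quantile or loess normalization 5 were, since the small difference of Camp turned to -0.02 and -0.01. Their median difference was 0.12, or 0.09 with either normalization, against 0.00 over all bright genes. Over all bright genes the median absolute difference was 0.117. With centring, the bright azurophil genes had a median of 0.03 and the bright specific granule genes 0.16, with 2 of 3 and 4 of 4 higher on array 2. With 2 arrays, this difference between classes could not be tested. None of the 7 was more than 2-fold apart, as were 0.107% of all bright genes.

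**Figure D2:**
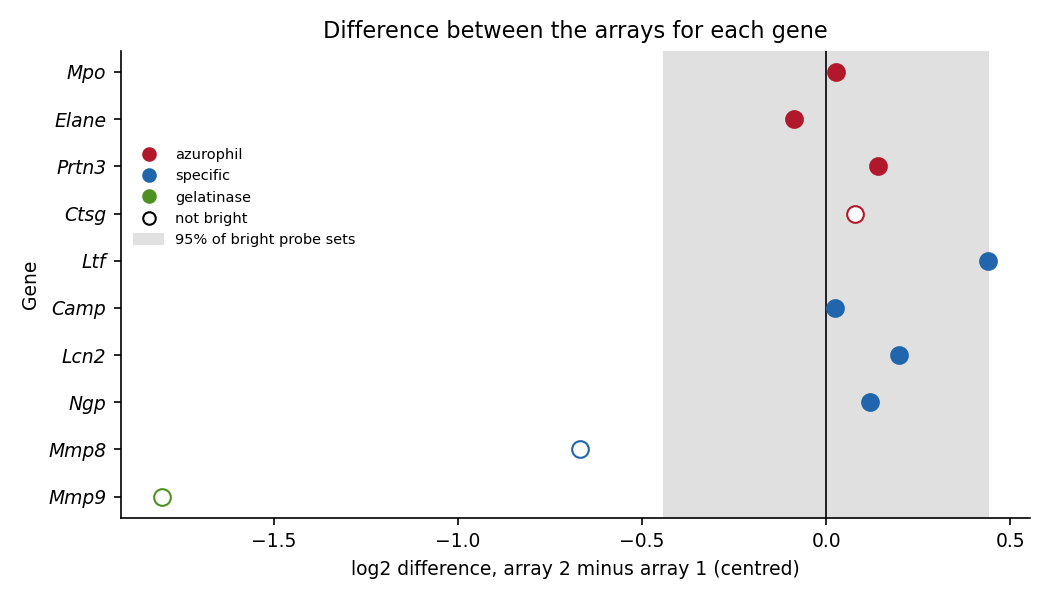
The log2 difference, array 2 minus array 1, of each granule gene's brightest probe set, coloured by granule class, with open circles for genes that were not bright. The grey band spans the range that held 95% of bright probe sets, 0.44 on either side of 0. The 7 bright genes lie within the band, Ltf at its edge, and Mmp8 and Mmp9 are plotted to its left. Mmp8 was not above background on either array and Mmp9 was not on array 2. Both were floored on array 2, so their distance from 0 is not a measured size.

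Among the genes that were not bright, Ctsg differed by 0.08 on the log2 scale. Mmp8 was not above background on either array and Mmp9 was not on array 2, so no size is given for their differences. All probe sets were ranked by mean signal and cut into 4 groups of like number. In the second dimmest group, which held the brighter Mmp9 probe set, the pooled SD was 0.522 and 17.6% of probe sets were more than 2-fold apart. In the brightest group, which held all 7 bright granule genes, the pooled SD was 0.142 and 0.0966% were more than 2-fold apart.

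**Figure D3:**
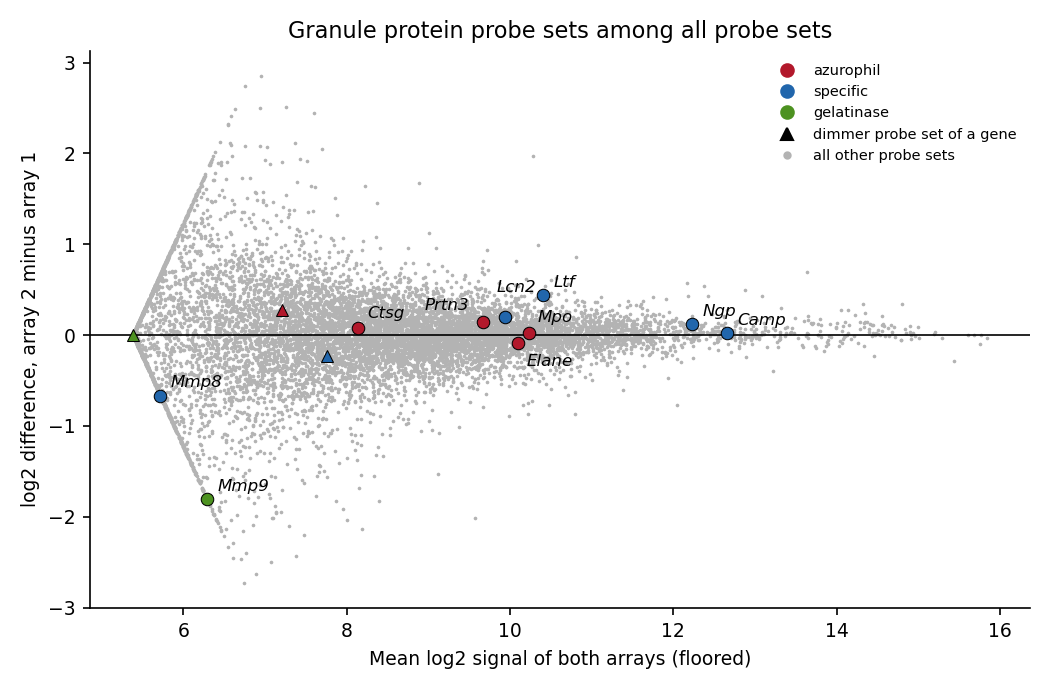
Log2 difference, array 2 minus array 1, against the mean log2 signal of both arrays for every probe set that is no control (grey), with the 13 granule probe sets coloured by class. Circles are the probe sets used for a gene and triangles the dimmer ones. The slanted edges at the left come from the floor at the 20th percentile, on which Mmp8 and Mmp9 lie.

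Genes of other granule proteins were read in the same way, from lists drawn up by function. For each list count here and below, the share of bright genes over all genes was 45.2%. Of 3 measured genes of further azurophil or lysozyme-type proteins 3 were bright. Lyz2, the lysozyme of neutrophils and macrophages, gave 8029 ± 123, and Cd63, a tetraspanin of azurophil and lysosomal membranes, gave 1509 ± 38.04. Of 5 measured genes of further specific granule proteins 4 were bright. Cybb and Cyba, which together form the membrane core of the oxidase that makes superoxide, gave 1033 ± 121 and 5917 ± 122. Chil1 alone, at 20.1 and 53.7, was not above background. Of 5 measured genes of further gelatinase granule and secretory vesicle proteins 2 were bright. Slc11a1, a metal transporter of phagosomes, gave 915 ± 50.6, and the lipopolysaccharide co-receptor Cd14 gave 1421 ± 120, while Adam8, Itgam and Alpl were above background and not bright.

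Genes for handling the granule proteases were bright for the most part. Srgn, the proteoglycan core on which granule proteins are packed, gave 614 ± 144, with 716 on array 1 and 512.2 on array 2. Ctsc, the protease that activates elastase, proteinase 3 and cathepsin G, gave 869 ± 11.03, and the third gene of this list, Cst7, was bright too. Of the inhibitors of granule proteases 5 were measured and 4 were bright (all genes, 45.2%), which were Slpi, Timp1, Timp2 and Timp3. Slpi, an inhibitor of elastase and cathepsin G, gave 3132 ± 16.6. Serpinb1a, an inhibitor of elastase, proteinase 3 and cathepsin G inside the neutrophil, gave 118 ± 12.4 and was not bright.

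Of 8 measured transcription factor genes of granulocyte formation 6 were bright, which were Cebpa, Spi1, Cebpb, Cebpd, Cbfb and Myb. Myb was read by a probe set that can read several related transcripts. The part of other cells in the signal of these 6 genes was not tested. Cebpa, which starts the granulocyte programme, gave 1322 ± 12.02, and Spi1, which encodes PU.1, gave 795 ± 37.8. Gfi1, a repressor needed for neutrophil maturation, gave 166.8 on array 1 and 77.4 on array 2, a mean of 122 ± 63.2, and was not bright. Runx1, at 103 ± 0.141, was not bright either. Cebpe, which encodes C/EBP-epsilon, was not measured by a probe set of its own. Over all lists of granule, processing, inhibitor and transcription factor genes, 22 of the 29 that were measured were bright (all genes, 45.2%), with a median log2 difference of 0.01, against 0.00 over all genes.

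**Figure D4:**
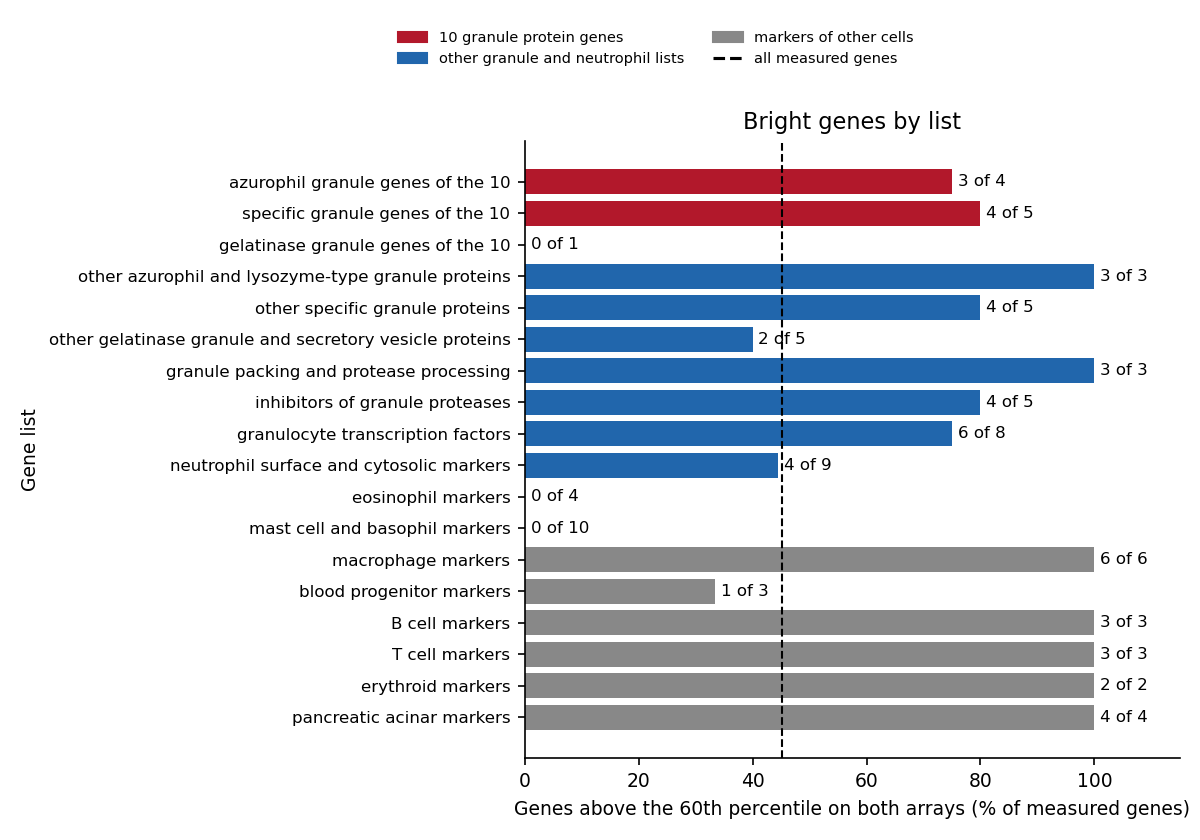
Share of the measured genes of each list that were above the 60th percentile on both arrays (bars, percent, with the count beside each), for the 10 granule genes by class (red), other granule and neutrophil lists (blue) and markers of other cells (grey). The dashed line is the share over all genes, 45.2%. Eosinophil and mast cell and basophil lists have no bright gene.

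Markers of the cells that could hold these transcripts were given beside them. Of 9 measured neutrophil surface and cytosolic genes 4 were bright: S100a8 at 11078 ± 112, S100a9 at 6521 ± 887, the receptor Csf3r at 956 ± 163 and the integrin chain Itgb2. Ly6g, the surface protein by which mouse neutrophils are recognised, gave 295.1 on array 1 and 195.2 on array 2, above background and not bright. Cxcr2, the chemokine receptor of mature neutrophils, gave 178.6 and 220.1 and was likewise above background and not bright. The share of this list that was bright, 44.4%, was near that of all genes.

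Eosinophil markers were bright in 0 of 4 cases, with Epx, the peroxidase of eosinophils and a close relative of Mpo, at 8.2 on array 1 and 7 on array 2. The defining Prg2 gave 50.8 and 39.7, and of this list Ccr3 alone was above background on both arrays. Mast cell and basophil markers were bright in 0 of 10 cases, with 4 above background on both arrays, which were Cma1, Tpsb2, Mcpt8 and Hdc. Cpa3, the carboxypeptidase of mast cells, gave 89.1 and 132.8, and Mcpt4 gave 18.8 and 8.4. The summed signal was 285.1 and 219.1 on arrays 1 and 2 for the eosinophil list, and 1183 and 1189 for the mast cell and basophil list. Ccr3 alone gave 219.5 and 147.2 of the eosinophil sum. Sums here and below depend on the probes and on the number of genes in a list. They do not measure the number of cells, and none is set against another.

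Macrophage markers were bright in 6 of 6 cases, with a summed signal of 16229 and 16094, among them Csf1r at 3581 ± 84.8 and Adgre1 at 463 ± 23.2. Macrophages share Lyz2, Cd63, Cybb, Cyba, Ctsc, Itgb2 and Spi1 with neutrophils. They also share Slc11a1 and Cd14, the 2 bright genes of the gelatinase granule and secretory vesicle list. Blood progenitor markers were bright in 1 of 3 cases, Flt3, while Kit gave 455.7 and 289.5 and Cd34 gave 151.2 and 162. Of the markers of the labelled tissue, those of B cells were bright in 3 of 3 cases, those of T cells in 3 of 3 and those of red cell precursors in 2 of 2, with Cd79a at 10602 ± 380.0, Cd79b at 7162 ± 98.4, Cd3e at 1190 ± 48.5, Cd3d at 590.0 ± 26.3, Alas2 at 12732 ± 125 and Klf1 at 3177 ± 138. Pancreatic acinar markers were bright in 4 of 4 cases as well, with a summed signal of 51476 and 53709, and Cela1 and Ctrb1 at 8880 ± 57.6 and 24153 ± 1240. The part of macrophages, epithelia and pancreas in the signal of Lcn2, Ltf, Lyz2, Slpi, Slc11a1 and Cd14 was not tested.

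By RefSeq's order of genes, Ltf, Camp, Ngp and Mmp8 lie on chromosome 9, and Elane and Prtn3 alone among the 10 are direct neighbours. Of the 18 other genes that flank a granule gene directly, 9 were measured, 3 of them were bright, against 45.2% of all genes, and 8 were above background, against 73.9%. The bright ones were Cdc25a beside Camp, at 527.2 and 499.5, Ptpn23 beside Ngp, at 356 and 399.4, and 1110008P14Rik beside Lcn2, at 503.6 and 603.5.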

How the data were processed

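Values were the signal intensities deposited for each probe set, which are linear. Their mean without the lowest and highest 2% was 500.265 on array 1 and 500.278 on array 2, so the deposited values were already scaled alike. No label names the software that made them. Precision is limited by the number of arrays, which was 2. In the platform annotation, 10833 of 12422 probe sets other than controls had 1 gene symbol, 396 had several and 1193 had none. Where several probe sets named a gene, the brightest by mean log2 signal stood for it. Named were all 10 granule genes with every probe set and the first 2 measured genes of each other list; others were named after their values were seen. The genes, lists and promoter patterns were chosen with earlier results of these data known. Alternatives changed the floor, the centring or normalization, the cutoff, the probe sets used or the arrays. The computation of differences was tested on simulated data. Computations ran in Python 3.11.15 (numpy 2.4.6, pandas 2.3.3, statsmodels 0.14.6), with figures from matplotlib 3.10.9.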

Additional observations from a re-analysis of the deposited data

How the results depend on the processing

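The count of bright granule genes, 7, ranged from 6 to 8 over its 8 alternatives. It was 6 without probe sets marked for several targets, where Mpo was read by its dimmer probe set. It was 8 when the cutoff was the 50th percentile or the highest bacterial control, where Ctsg passed. Of all genes, 73.9% passed the highest bacterial control, and the share at the 50th percentile was not computed. With the 75th percentile as cutoff the count was 7, against 28.5% of all genes. The count was also 7 on each array alone. The azurophil count, 3, ranged from 2 to 4 under the same 8 alternatives, through Mpo and Ctsg. The specific granule count stayed at 4 and the gelatinase count at 0. The count above background was 8 under 4 of 5 alternatives and 9 on array 1 alone, where Mmp9 passed. The median log2 difference of all 10 genes, 0.05, ranged from 0.05 to 0.10 over 9 alternatives, and it was 0.12 over the 7 bright genes. Of 90 values of single genes 6 moved by more than the pooled SD: Mpo to 0.27 without probe sets marked for several targets, Lcn2 to -0.02 with the mean over probe sets, and, from values not above background, Mmp8 with a pseudocount of 16 and Mmp9 with the floor at the 10th percentile, with no floor and with the mean over probe sets. No paired analysis was possible because there was only 1 group.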

Other observations

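Some probe sets of the related lists name several genes and entered no count. The one that names both lysozyme genes, Lyz1 and Lyz2, gave 13926.7 on array 1 and 13970.7 on array 2. The 3 that name several Serpina1 genes, which encode alpha-1-antitrypsin, the plasma inhibitor of elastase, gave between 899.1 and 2903.1 over both arrays, and all 3 were bright. The probe set that names Csf2rb2 and Csf2rb gave 522.8 and 500.6 and was bright, whereas the one that names Csf2rb alone gave 190.4 and 115.5 and was not.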
